A study of Mus musculus with 10 samples.

Results

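Collagens are the most abundant structural proteins of the extracellular matrix, and their genes carry systematic symbols for type and chain. The family was taken as all protein-coding mouse genes whose symbol consists of Col, a type number, the letter a and a chain number. It held 44 of the 54446 gene identifiers in the count tables: 11 fibrillar collagens, 9 collagens of basement membranes and 24 other collagens. Of the 44, 32 reached 10 counts in at least 3 libraries and were tested, comprising 10 fibrillar, 6 basement membrane and 16 other members.

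Every collagen contains stretches in which chains wind around each other into a stiff helix, and the chains are hydroxylated, folded and assembled in the endoplasmic reticulum before secretion. Fibrillar collagens (types I, II, III, V, XI, XXIV and XXVII) pack side by side into the cables of connective tissue. Type IV collagen forms the sheet-like network under endothelium and around nerve and muscle cells, where types XV and XVIII are bound as well. The other collagens coat fibrils, build beaded filaments (type VI), span the plasma membrane or form short-chain networks. In a solid tumour such as neuroblastoma, fibroblasts, pericytes, endothelial cells and Schwann cells are known producers of collagens.

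The RNA came from flash-frozen tumours of TH-MYCN mice, which carry a human MYCN transgene under a tyrosine hydroxylase promoter and develop neuroblastoma in the sympathetic nervous system. Tumours were untreated (n = 3 libraries, numbered 1 to 3), treated for 24 h (n = 3, numbered 2 to 4) or treated for 5 days (n = 4, numbered 1 to 4). Treatment combined MLN8237 (alisertib), which blocks Aurora-A, a kinase of mitosis, with AZD6738 (ceralasertib), which blocks ATR, a kinase of the DNA damage checkpoint, per the sample titles, whereas the design text writes "or" between the drug names. All groups carry the transgene, no vehicle-treated group is among the samples described here, and the sources used here give neither age nor sex of the mice. Whether the libraries of a group are from different animals is likewise not stated, so every p-value here reflects only the scatter between these libraries, which may be technical.

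Libraries held 5576926 to 5696436 counts. Values are normalised read counts (CPM), scaled to equal library size by the trimmed mean of M-values (TMM), and the limit used where a gene had 0 counts, which is 3 counts, equals 0.513 to 0.648 CPM; this limit covers counting error only. The 5-day library 1 stood apart from the other 9. Its TMM factor was 0.812 against 1.001 to 1.039 elsewhere, its 10 markers of adrenergic neuroblastoma summed to 462 CPM against 1351 to 1893 CPM elsewhere, and the biological coefficient of variation over all genes was 40.9% with it and 19.0% without it. Each comparison was therefore made with all 10 libraries and with the 9 that remain without 5-day library 1.

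Collagen transcripts differed more within the 5-day group than between the groups. Summed over the 44 genes, they were at 1704, 1353 and 3456 CPM in the untreated libraries and at 1996, 2991 and 3139 CPM in the 24 h libraries. In the 5-day libraries 1 to 4 the sum was 23330.0, 2008, 3614 and 526 CPM. The 5-day group thus contained both the highest and the lowest of the 10 values, 44.3-fold apart, while its libraries 2 and 3 lay within or near the range of the other groups. Library 1 was 10.7 times the untreated mean, or 8.57 times when CPM were computed from raw totals without TMM. Library 4 was 4.13 times below the untreated mean of 2171 ± 1126 CPM (SD, n = 3). Because these are bulk samples, fewer collagen-producing cells and less collagen RNA per cell cannot be told apart.

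No collagen gene passed the test in any comparison. With edgeR's quasi-likelihood test and Benjamini-Hochberg adjustment over all genes, 0 of the 32 tested members were called at 24 h, at 5 days or between 5 days and 24 h, both with all 10 libraries and without 5-day library 1. DESeq2 and limma voom likewise called 0 members. Over all tested genes the shares called by edgeR were 0.0%, 0.0% and 0.0% with all 10 libraries. Without library 1 they were 0.0135% at 24 h (2 of 14802 genes) and 0.0% and 0.0% in the others. DESeq2 called 0, 22 and 3 genes of the whole table with all libraries, and 104, 82 and 20 without library 1.

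**Figure D1:**
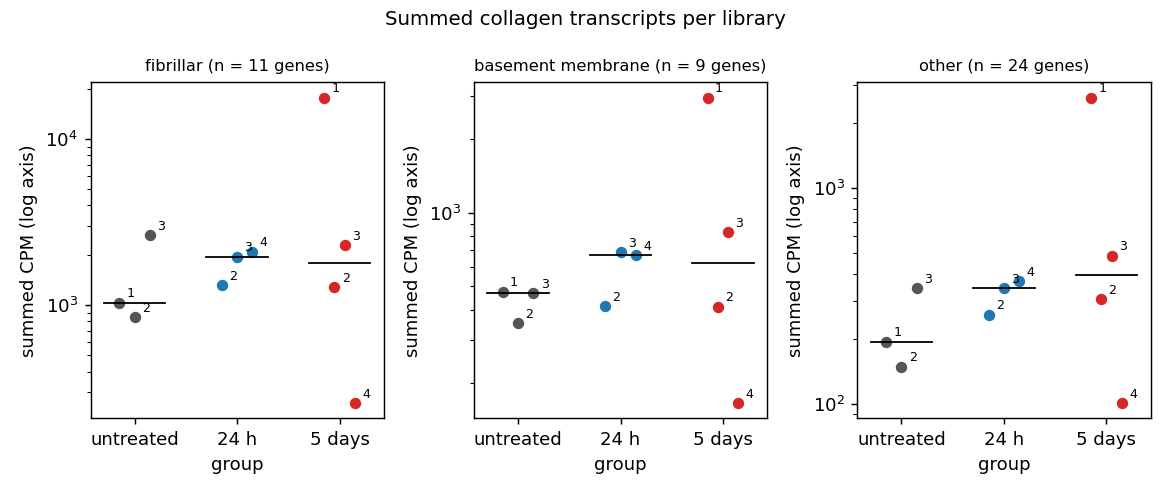
Summed CPM of fibrillar, basement membrane and other collagens per library (points, numbered by library) on log axes, with group medians as horizontal lines (untreated n = 3, 24 h n = 3, 5 days n = 4). In each class 5-day library 1 is the highest and 5-day library 4 the lowest of the 10 libraries.

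The spread was widest for fibrillar collagens. Their sum was 1035, 852 and 2645 CPM in untreated libraries, 1323, 1959 and 2099 CPM at 24 h, and 17737, 1290.2, 2296 and 259 CPM at 5 days. The highest and lowest 5-day libraries differed 68.5-fold for this class, 17.9-fold for basement membrane collagens and 25.9-fold for the others. Untreated library 3 was also high in fibrillar collagens, above all 24 h libraries. Of the 10 fibrillar genes tested, 9 were highest in 5-day library 1 and 7 lowest in 5-day library 4.

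Col3a1 (ENSMUSG00000026043, chr1:45311538-45349706 of mm10, plus strand) encodes the only chain of type III collagen, known from vessel walls and pliable organs. It was at 285, 255 and 1119 CPM in untreated libraries, 401, 531 and 391 CPM at 24 h, and 6923, 471, 591 and 78.2 CPM at 5 days. Untreated library 3 exceeded every 24 h library, and the 5-day values spanned the whole range of the other groups. The 5-day log2 fold change against untreated was 1.87 (SE 1.28, adjusted p = 0.568) with all libraries and -0.53 (SE 0.86, adjusted p = 0.904) without library 1, so the sign rested on that library.

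Type I collagen, the main fibre of skin, tendon and scar, is built of the Col1a1 and Col1a2 chains. Col1a1 (ENSMUSG00000001506, chr11:94936224-94953042, plus strand) was at 299.7, 246 and 608 CPM in untreated libraries, 363, 556 and 715 CPM at 24 h, and 4984, 293, 639 and 48.8 CPM at 5 days. Col1a2 was at 315, 216 and 609 CPM, then 369, 614 and 677 CPM, and then 4326, 335, 704 and 71.1 CPM in the same order. Both chains ranked the 5-day libraries alike, with library 1 far above and library 4 below every other library. For Col1a1 the log2 fold change was 0.50 (SE 1.25) at 24 h, and at 5 days 1.96 (SE 1.24) with all libraries against -0.22 (SE 0.85) without library 1. The adjusted p-values at 5 days were 0.553 and 0.965.

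The type V chains, which nucleate and limit the width of type I fibrils, followed the same order at lower levels. Col5a1 was at 63.9, 56.1 and 114 CPM in untreated libraries, 75.2, 86.9 and 126 CPM at 24 h, and 546, 62.9, 129.7 and 29.3 CPM at 5 days. Col5a2 was at 41.4, 42.9 and 91.4 CPM, 81.4, 102 and 115 CPM, and 524, 73.7, 157 and 16.8 CPM. Col5a3 was at 18.3, 24.0 and 88.9 CPM, 21.7, 55.4 and 48.1 CPM, and 383, 36.8, 56.1 and 5.14 CPM. Col5a3 had the widest untreated spread of the 3 chains, set by library 3, and its groups overlapped fully. Among the remaining fibrillar genes, Col11a1, Col11a2 and Col24a1 lay between 0.699 and 7.56 CPM in every library, and Col27a1 between 0 and 32.8 CPM. Col27a1, which had 0 counts in 5-day library 4 (limit 0.532 CPM), peaked in 5-day library 1.

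Upstream sequences are shown for 4 members with different ranges: Col3a1 (the highest transcript by mean CPM), the fibril-nucleating chain Col5a1, its relative Col5a3, and Col6a3, which had the highest 5-day log2 fold change among the 14 most abundant members. Each is the 250 bases before the gene start in RefSeq, build GRCm38.p6, printed 5′ to 3′ on the gene's strand, with capitals marking motif matches on either strand. The TATA box was searched as TATAAA. The CCAAT box was searched by the letters of its name. The GC box was searched as GGGCGG. No annotated exon of GENCODE M21 lies in these windows (0 for each). Positions are counted from the gene start, with -1 the last base printed, and refer to the motif's first letter.
Col3a1, chr1:45311288-45311537, plus strand: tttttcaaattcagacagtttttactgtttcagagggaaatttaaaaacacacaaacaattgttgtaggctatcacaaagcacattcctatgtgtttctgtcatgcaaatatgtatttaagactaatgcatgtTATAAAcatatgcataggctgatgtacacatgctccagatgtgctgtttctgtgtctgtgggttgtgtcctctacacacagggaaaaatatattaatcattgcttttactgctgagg
Col5a1, chr2:27886175-27886424, plus strand: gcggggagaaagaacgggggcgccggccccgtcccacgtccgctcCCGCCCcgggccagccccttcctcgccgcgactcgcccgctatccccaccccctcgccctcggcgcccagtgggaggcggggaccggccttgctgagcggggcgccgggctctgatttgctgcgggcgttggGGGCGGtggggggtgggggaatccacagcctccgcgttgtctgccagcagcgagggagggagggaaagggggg
Col5a3, chr9:20815068-20815317, minus strand: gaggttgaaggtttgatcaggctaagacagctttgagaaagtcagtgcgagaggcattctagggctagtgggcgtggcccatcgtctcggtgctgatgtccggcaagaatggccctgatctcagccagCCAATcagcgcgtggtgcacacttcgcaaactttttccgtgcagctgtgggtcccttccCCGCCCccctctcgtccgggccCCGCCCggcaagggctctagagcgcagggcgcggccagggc
Col6a3, chr1:90843972-90844221, minus strand: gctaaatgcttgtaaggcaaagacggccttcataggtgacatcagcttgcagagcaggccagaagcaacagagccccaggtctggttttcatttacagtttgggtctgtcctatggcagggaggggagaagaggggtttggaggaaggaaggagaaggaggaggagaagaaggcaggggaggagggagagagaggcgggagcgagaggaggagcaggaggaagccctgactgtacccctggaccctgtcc
The Col3a1 window held a TATA box at -117 and neither other motif. The Col5a1 window held the GC box at -205 and -73, and that of Col5a3 held it at -63 and -41 with a CCAAT box at -122. None of the 3 motifs was found in the Col6a3 window. These motifs do not overlap each other in the 4 windows. Over all 32851 RefSeq windows of this length, 12.4% held the TATA box, 33.8% the CCAAT box and 32.7% the GC box. Of 38 windows of the 35 collagen genes in the table, 13.2%, 34.2% and 57.9% did. A match describes letters only, and no binding data are part of the samples described here.

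**Figure D2:**
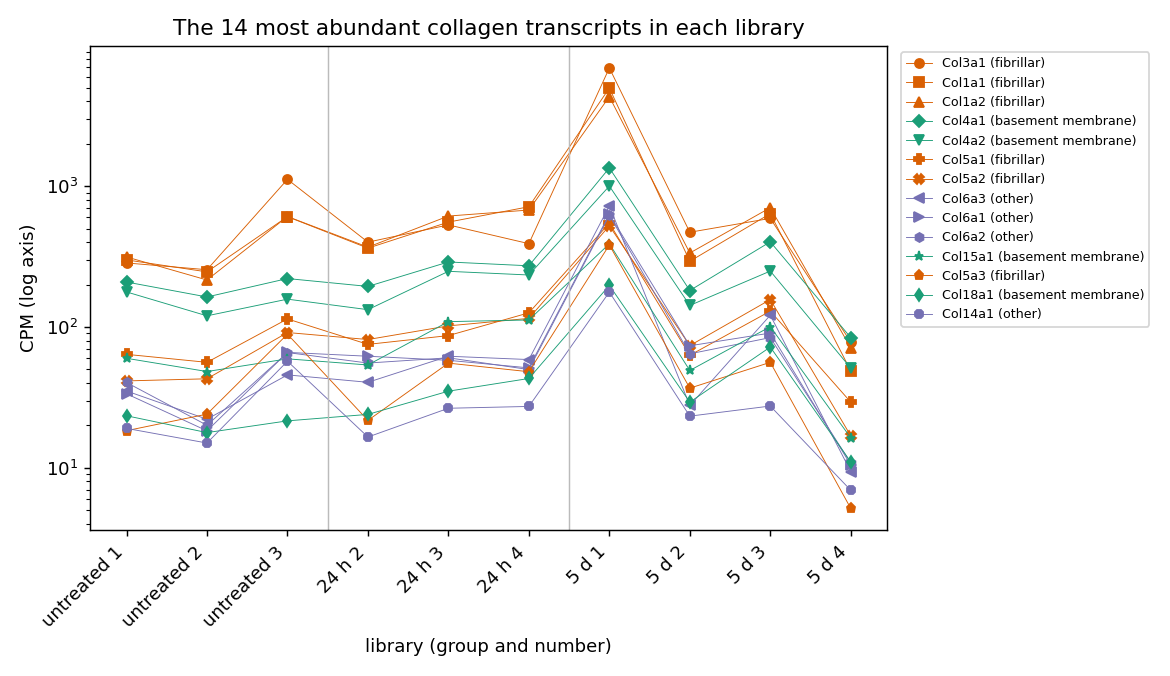
CPM (log axis) of the 14 collagen genes with the highest mean CPM in each of the 10 libraries, coloured by class, with thin lines joining the points of a gene only as a guide. All 14 are highest in 5-day library 1 and lowest in 5-day library 4.

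Basement membrane collagens varied less among untreated and 24 h libraries than fibrillar collagens did. Their sum was 474, 352 and 468 CPM in untreated libraries, 413, 687 and 667 CPM at 24 h, and 2964, 412, 831 and 166 CPM at 5 days. The untreated mean was 431 ± 68.4 CPM (SD, n = 3), and the 24 h mean 589 ± 153 CPM (SD, n = 3), with 24 h library 2 inside the untreated range.

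Col4a1 and Col4a2 encode the chains of the common type IV network and are transcribed away from each other. Their annotated first bases lie at positions 11312826 (minus strand) and 11312805 (plus strand) of chromosome 8, so that the gene spans share 22 bases. Col4a1 was at 209, 163 and 221 CPM in untreated libraries, 194, 289.7 and 272 CPM at 24 h, and 1349.8, 182, 403 and 84.1 CPM at 5 days. Col4a2 was at 177, 120.0 and 158 CPM, 133, 249 and 234 CPM, and 1003, 142, 249.6 and 51.1 CPM. Both had 24 h libraries 3 and 4 above the untreated range and 24 h library 2 within it. The 24 h log2 fold change of Col4a1 was 0.35 (SE 0.81, adjusted p = 1.00), and its 5-day value 1.36 (SE 0.79) with all libraries and 0.18 (SE 0.53) without library 1.

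Types XV and XVIII carry chondroitin or heparan sulphate chains, and type XVIII is the source of the endostatin fragment. Col15a1 was at 59.9, 48.3 and 59.4 CPM in untreated libraries, 53.7, 109 and 112 CPM at 24 h, and 390.0, 49.1, 101 and 16.3 CPM at 5 days. Col18a1 was at 23.4, 17.8 and 21.5 CPM, 23.9, 35.0 and 43.1 CPM, and 197, 29.2, 72.0 and 11 CPM. Every 24 h library exceeded every untreated library for Col18a1, by a narrow margin in library 2, whereas the 5-day values fell on both sides. At 24 h the log2 fold changes were 0.72 (SE 0.91) for Col15a1 and 0.70 (SE 0.83) for Col18a1. At 5 days Col18a1 had 1.89 (SE 0.81, adjusted p = 0.538) with all libraries and 0.85 (SE 0.62, adjusted p = 0.740) without library 1. Among the minor type IV chains, Col4a5 reached 16.9 CPM in 5-day library 1 and 0.871 to 5.30 CPM elsewhere, and Col4a4 lay between 0.348 and 3.30 CPM in all libraries.

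The remaining class was led by type VI collagen, which assembles beaded filaments around cells. Its 6 genes summed to 126, 72.5 and 197 CPM in untreated libraries, 179, 196 and 190.2 CPM at 24 h, and 2100.2, 201, 334 and 64.9 CPM at 5 days. The 24 h libraries were closely grouped at 188 ± 8.71 CPM (SD, n = 3), against an untreated mean of 132 ± 62.7 CPM (SD, n = 3), and untreated library 3 lay above all 3 of them. Col6a1 was at 33.5, 18.3 and 66.0 CPM in untreated libraries, 62.0, 58.0 and 51.2 CPM at 24 h, and 633, 73.6, 90.6 and 10.5 CPM at 5 days. Col6a2 was at 40.3, 20.0 and 65.8 CPM, 55.4, 60.4 and 49.8 CPM, and 621, 64.5, 84.1 and 10.8 CPM. For both, untreated library 3 was above all 24 h libraries.

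Col6a3 (ENSMUSG00000048126, chr1:90765923-90843971, minus strand), the longest of the classical type VI chains, was at 35.1, 22.1 and 45.7 CPM in untreated libraries, 40.5, 62.0 and 58.7 CPM at 24 h, and 724, 27.7, 121 and 9.40 CPM at 5 days. Libraries 2 and 3 of the 5-day group differed more for Col6a3 than for the other chains, with library 2 inside the untreated range. Its 5-day log2 fold change was 2.69 (SE 1.25, adjusted p = 0.538) with all libraries and 0.63 (SE 0.85, adjusted p = 0.874) without library 1. Col14a1, a fibril-associated collagen of skin and tendon, was at 19.0, 15 and 57.1 CPM, 16.5, 26.5 and 27.3 CPM, and 177, 23.3, 27.4 and 6.92 CPM. As with Col3a1 and Col5a3, its second-highest library of the 10 was untreated library 3.

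Of the 32 tested members, 25 were highest in 5-day library 1, a share of 78.1% against 37.5% of all tested genes. In 5-day library 4, 17 members were the lowest of the 10 libraries without a tie, a share of 53.1% against 10.7% of all tested genes. By class, library 1 was highest for 5 of 6 basement membrane and 11 of 16 other members, and library 4 lowest for 4 of 6 and 6 of 16. The members not highest in library 1 were Col4a4, Col9a1, Col9a3, Col11a1, Col13a1, Col26a1 and Col28a1. All of these stayed under 10 CPM in every library.

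At 24 h, 27 of the 32 tested members had a positive log2 fold change against untreated and 5 a negative one, with a median of 0.56, against -0.01 over all tested genes, of which 48.5% were positive. The class medians were 0.52 for fibrillar, 0.57 for basement membrane and 0.61 for other members, and without 5-day library 1 they were 0.53, 0.58 and 0.62. Within groups, the median log2 level of a class varied between libraries with an SD of 1.48, 1.11 and 0.85 in the same order. Without 5-day library 1 these SDs were 0.98, 0.63 and 0.61. Many members rose and fell together across libraries, so signs counted over members, here and at 5 days, are not separate observations. At an unadjusted p under 0.05, edgeR had 2 members with all libraries and 3 without 5-day library 1, where the shares of all genes were 1.76% and 8.22%. In 4 members every 24 h library exceeded every untreated library and in 0 the reverse held, against 7.04% and 6.76% of all tested genes. These 4 were Col18a1, Col16a1, Col20a1 and Col26a1. Col26a1, also among the members at an unadjusted p under 0.05, passed the count filter only through treated libraries. Col20a1, with 4, 9 and 10 counts in the untreated libraries, likewise needed treated libraries to pass.

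At 5 days, 30 of 32 members had a positive log2 fold change with all libraries, with a median of 1.39 against 0.01 over all genes, of which 50.6% were positive. Class medians were 1.59 for fibrillar, 1.34 for basement membrane and 1.33 for other members. Without library 1 the counts were 21 positive and 11 negative, and the medians were -0.00 for fibrillar (5 positive, 5 negative), 0.09 for basement membrane (3 and 3) and 0.64 for other members (13 and 3). At an unadjusted p under 0.05 there were 8 members with all libraries and 2 without library 1, where all genes had shares of 8.41% and 8.60%. Of the 8, Col24a1 (4, 7 and 8 untreated counts), Col20a1 (4, 9 and 10) and Col23a1 (10, 9 and 9) needed treated libraries to pass the filter. So did Col4a5 (13, 5 and 16). The number 8 is thus not independent of the filter. No overlap with the untreated group was found for 3 members, all in the other class and all higher (Col6a6, Col23a1 and Col26a1), with and without library 1, and for 0 that were lower. For Col26a1 this rests on scaling alone, since untreated library 2 and 5-day libraries 1 and 4 each had 6 counts. For Col23a1 it rests on 13 to 18 counts at 5 days against 9 or 10 untreated. Both genes passed the count filter only through treated libraries, so their separation is not independent of that choice. Over all genes 3.91% were higher without overlap with all libraries and 6.46% without library 1, and 4.97% and 7.73% were lower.

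**Figure D3:**
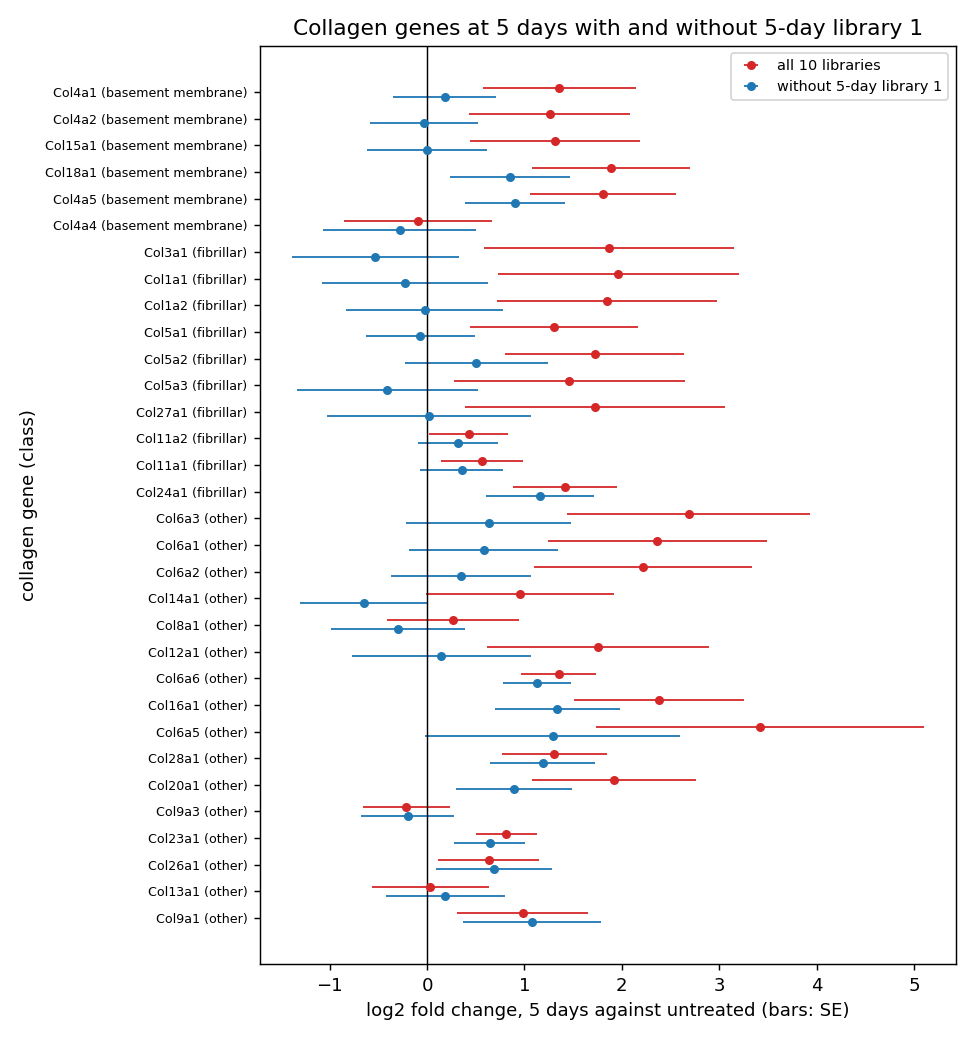
Log2 fold change at 5 days against untreated for the 32 tested collagen genes (x axis; bars are standard errors) with all 10 libraries (red) and without 5-day library 1 (blue). Values of Col1a1 (1.96 and -0.22) and Col3a1 (1.87 and -0.53) lie on both sides of 0, while Col6a6 (1.35 and 1.13) and Col28a1 (1.31 and 1.19) move little.

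Between 5 days and 24 h the sign of most members depended on 5-day library 1. With all libraries 28 of 32 were positive with a median of 0.97 (all genes 0.03), and without it 11 were positive and 21 negative with a median of -0.21 (all genes -0.00). The class medians went from 1.03 to -0.34 for fibrillar, from 0.91 to -0.02 for basement membrane and from 0.78 to -0.08 for other members. At an unadjusted p under 0.05 there were 2 members with all libraries and 1 without library 1, and the shares of all genes were 6.32% and 7.86%. In 0 members did the groups not overlap, against 3.27% of all genes that were higher and 4.41% that were lower.

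Some members outside the 14 most abundant did not follow the common order of libraries, and 4 of them, chosen after their values were seen, are given here. Col6a6 (ENSMUSG00000043719, chr9:105687809-105828160, minus strand), an additional chain of type VI, was at 15.7, 10.6 and 15.8 CPM in untreated libraries, 10.7, 13.8 and 30.2 CPM at 24 h, and 51.4, 28.1, 30.9 and 33.2 CPM at 5 days. All 4 of its 5-day values exceeded all untreated values, and library 4, the lowest for the 14 abundant genes, was the second highest of the 5-day group. The 5-day log2 fold change against untreated was 1.35 (SE 0.39, unadjusted p = 0.0064, adjusted p = 0.538) with all libraries and 1.13 (SE 0.35, unadjusted p = 0.0093, adjusted p = 0.418) without library 1, by edgeR.

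Col16a1, a fibril-associated collagen, was at 3.84, 4.36 and 10.6 CPM in untreated libraries, 15, 17.1 and 29.5 CPM at 24 h, and 83.8, 23.6, 18.9 and 4.61 CPM at 5 days. The 24 h libraries all lay above the untreated ones, and 5-day library 4 lay among the untreated values. Its 24 h log2 fold change was 1.71 (SE 0.89) with all libraries and 1.72 (SE 0.64, adjusted p = 0.551) without 5-day library 1. Col28a1, known from the surroundings of Schwann cells in peripheral nerve, was at 1.92, 3.66 and 2.26 CPM, 3.27, 6.96 and 8.86 CPM, and 8.21, 8.21, 7.38 and 2.13 CPM. In each treated group, all libraries but 1 (24 h library 2 and 5-day library 4) exceeded the untreated range.

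Col26a1 was highest at 24 h and lay near the untreated values at 5 days. This gene (ENSMUSG00000004415, chr5:136741759-136883209, minus strand) was at 0.873, 1.05 and 0.868 CPM in untreated libraries, 1.55, 4.18 and 6.43 CPM at 24 h, and 1.30, 2.22, 1.20 and 1.06 CPM at 5 days. Levels this low rest on few counts, 5, 6 and 5 in the untreated libraries. The gene reached 10 counts only in 24 h libraries 3 and 4 (24 and 37 counts) and 5-day library 2 (13 counts). It was thus tested only because treated libraries were high, and its p-values are not independent of that choice. Its log2 fold change was 2.1 (SE 0.53, unadjusted p = 0.0031) at 24 h against untreated and -1.46 (SE 0.47, unadjusted p = 0.0117) at 5 days against 24 h with all libraries. Neither passed adjustment over all genes by edgeR (adjusted p = 1.00 and 0.581).

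**Figure D4:**
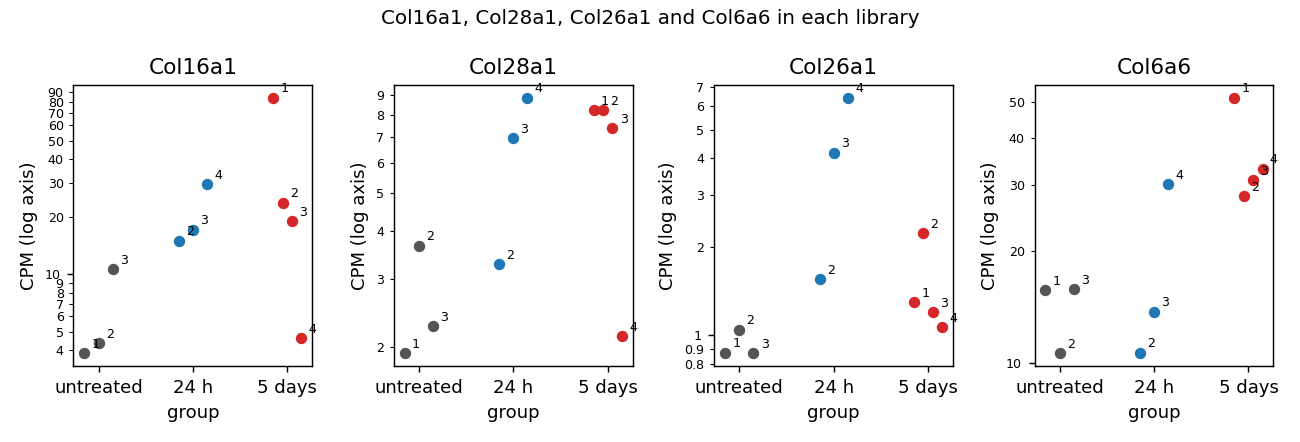
CPM (log axes) of Col16a1, Col28a1, Col26a1 and Col6a6 by group, each point a library with its number. Col6a6 stays between 28.1 and 51.4 CPM in all 5-day libraries, and Col26a1 is highest in 24 h libraries 3 and 4 (4.18 and 6.43 CPM).

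The proportions of collagen transcripts also differed between libraries. Fibrillar genes made up 76.0% of all collagen counts in 5-day library 1, 76.5% in untreated library 3, 49.2% in 5-day library 4 and 60.8% to 66.9% in the other 7 libraries. Basement membrane genes made up 12.7%, 13.5% and 31.5% of the collagen counts in the same 3 libraries. Col1a1, Col1a2 and Col3a1 together ranged from 37.6% in 5-day library 4 to 69.6% in 5-day library 1. The library with the lowest collagen sum thus also had the lowest fibrillar share.

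Levels of different genes were also divided by the kilobases of exon sequence, merged over all annotated transcripts of a gene. Such values depend on which transcripts are annotated. The sources used here do not give the counting rules, and overlapping genes could lower such values. On this scale the highest untreated means were those of Col1a1 (58.6 CPM per kb), Col3a1 (56.3 CPM per kb), Col1a2 (30.6 CPM per kb), Col4a1 (26.5 CPM per kb) and Col4a2 (22.9 CPM per kb), followed by Col5a1 (9.19 CPM per kb). The per-length ratio of Col1a1 to Col1a2 had a median of 1.83 over the 10 libraries. It was lowest in 5-day library 4 (1.30) and highest in 5-day library 1 (2.18). Its size rests on the merged lengths of 6563 and 12426 bases, since the untreated mean CPM were 385 and 380. It therefore says nothing about chain proportions. Col4a1 over Col4a2 ranged from 1.03 to 1.46, and Col6a1 over Col6a2, with merged lengths of 4380 and 8326 bases, from 1.58 to 2.17. Col6a3 over Col6a1 ranged from 0.138 in 5-day library 2 to 0.490 in 5-day library 3. Col5a1 over Col5a2, noticed after the values were seen and not tested, was 1.54 ± 0.176 in untreated libraries and 1.08 ± 0.141 at 24 h (SD, n = 3 each) without overlap, and 1.18, 0.965, 0.935 and 1.96 at 5 days.

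Genes that serve collagens were read from lists of their biosynthesis, processing, fibril organisation, breakdown and recognition. None of their tested members was called by edgeR in any comparison. Of 22 genes for folding and modification in the endoplasmic reticulum, 9 had a positive and 13 a negative log2 fold change at 24 h (median -0.07). At 5 days 19 of 22 were positive (median 0.45) with all libraries, and 5 of 21 (median -0.14) without library 1. Sparc, a collagen-binding matricellular protein, was at 318, 211 and 556 CPM in untreated libraries, 285, 533 and 506 CPM at 24 h, and 2662, 439, 454 and 84.6 CPM at 5 days. P4hb, a subunit of prolyl 4-hydroxylase, was at 334, 363 and 389.5 CPM, 314, 324 and 295 CPM, and 680.0, 274, 345 and 294 CPM. Sparc thus shared the highest and the lowest library with the fibrillar collagens, while P4hb varied far less.

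Of 15 genes for procollagen processing and cross-linking, 13 were tested. At 24 h 6 of the 13 were positive (median -0.03), at 5 days 11 (median 1.25) and, without library 1, 6 of 12 (median -0.03). Pxdn, the peroxidase that cross-links type IV collagen, was at 121, 145 and 149 CPM in untreated libraries, 132, 142 and 134 CPM at 24 h, and 179, 132, 138 and 125 CPM at 5 days. Adamts3, a procollagen N-propeptidase, was at 83.7, 89.6 and 75.7 CPM, 86.1, 99.8 and 81.5 CPM, and 35.7, 76.5, 75.8 and 98.1 CPM. Neither had the wide range of the collagens, and Adamts3 was lowest in the library where collagens were highest.

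Of 16 fibril-binding proteoglycans and organisers, 12 were tested, with 6 positive at 24 h (median -0.02), 11 at 5 days (median 1.66) and 4 of 11 at 5 days without library 1 (median -0.26). Fn1, fibronectin, was at 123, 141 and 361 CPM in untreated libraries, 178, 223 and 226 CPM at 24 h, and 1091, 129, 278 and 44.0 CPM at 5 days. Postn, periostin, was at 34.2, 71.8 and 121 CPM, 80.1, 188 and 205 CPM, and 541, 107, 221 and 27.8 CPM. Both shared the extremes of the fibrillar collagens in 5-day libraries 1 and 4.

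Of 18 other basement membrane genes, 16 were tested, with 9 positive at 24 h (median 0.04), 15 at 5 days (median 0.74) and 8 of 15 at 5 days without library 1 (median 0.09). Agrn, the heparan sulphate proteoglycan agrin, was at 96.9, 127 and 128 CPM in untreated libraries, 154, 155 and 178 CPM at 24 h, and 199.6, 145, 147 and 110.3 CPM at 5 days. Lamc1, the laminin gamma 1 chain, was at 72.7, 92.5 and 118 CPM, 79.0, 90.5 and 85.3 CPM, and 368, 90.1, 113 and 63.3 CPM. For Agrn all 24 h libraries exceeded the untreated ones, with a log2 fold change of 0.47 (SE 0.21, adjusted p = 1.00).

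Of 20 genes of collagen breakdown and uptake, 14 were tested, with 12 positive at 24 h (median 0.45), 12 at 5 days (median 2.05) and 8 at 5 days without library 1 (median 0.14). The lysosomal protease gene Ctsb was at 799, 536 and 681 CPM in untreated libraries, 1001, 1083 and 952 CPM at 24 h, and 7456, 1040.3, 1029 and 799 CPM at 5 days. Ctsl was at 102, 83.1 and 134 CPM, 175, 162 and 132 CPM, and 2481, 173, 335 and 86.2 CPM. Ctsb was thus high in library 1 but, unlike the abundant collagens, not below the untreated range in library 4.

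Of 11 collagen receptors, 10 were tested, with 5 positive at 24 h (median 0.09), 7 at 5 days (median 0.51) and 3 at 5 days without library 1 (median -0.18). Itgb1, the integrin beta 1 subunit, was at 392, 388 and 365 CPM in untreated libraries, 320.3, 327 and 344 CPM at 24 h, and 658, 299, 404 and 350.2 CPM at 5 days. Adgrg1, an adhesion receptor that binds type III collagen, was at 452, 423 and 442 CPM, 501, 354 and 306 CPM, and 119, 316, 388 and 433 CPM. Adgrg1 was lowest in the library with the most Col3a1.

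Of 15 genes of transforming growth factor beta signalling, all were tested, with 7 positive at 24 h (median -0.02), 14 at 5 days (median 1.12) and 11 at 5 days without library 1 (median 0.08). The receptor gene Tgfbr1 was at 108, 106 and 85.1 CPM in untreated libraries, 111, 98.7 and 96.6 CPM at 24 h, and 190.1, 108, 129 and 131 CPM at 5 days. Its partner Tgfbr2 was at 23.6, 19.7 and 53.3 CPM, 19.5, 26.5 and 22.9 CPM, and 474, 46.7, 33.3 and 16.3 CPM. Only Tgfbr2 of the pair had its lowest value in 5-day library 4.

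Markers of cells that make collagens, and of others, were summed per library, and their part in the collagen levels was not tested. The 10 fibroblast markers, 9 of them tested and none at 0 throughout, summed to 37.6 to 322 CPM in untreated libraries, the top value being library 3, and to 59.6 to 102 CPM at 24 h. At 5 days they summed to 2312, 227, 76.9 and 18.8 CPM, with the same libraries at the extremes as for the collagens. Gsn (1055 CPM) and Dcn (654 CPM), which shared these extremes, made up most of the sum in library 1. Not every marker did, since Dpt and Clec3b had their lowest values, at few counts, outside 5-day library 4. Unlike the collagen sum, the fibroblast sum was higher in 5-day library 2 than in library 3. The 10 pericyte and smooth muscle markers summed to 150.4 to 268 CPM untreated, 133 to 381 CPM at 24 h, and 815, 175, 269 and 72.2 CPM at 5 days. The 10 endothelial markers summed to 90.1 to 195 CPM untreated, 85.1 to 193 CPM at 24 h, and 640.0, 167, 134 and 48.2 CPM at 5 days. All members of these 2 lists were tested. The fibroblast sum had the widest range of the 3.

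Macrophage markers (10 of 10 tested) summed to 254 to 417 CPM untreated, 460.1 to 665 CPM at 24 h, and 5811, 632, 559.9 and 387 CPM at 5 days, so that library 4 stayed inside the untreated range. Adipocyte markers (8 of 10 tested, Lipe at 0) summed to 49.3 to 807 CPM untreated, 20.7 to 236 CPM at 24 h, and 8497, 1109, 95.7 and 18.3 CPM at 5 days. Schwann cell and glial markers (6 of 8 tested) kept to 41.0 to 111 CPM over all 10 libraries. Cartilage and bone markers (2 of 10 tested) reached 22.9 CPM in 5-day library 1 and 3.14 to 11.3 CPM elsewhere. Skeletal muscle markers (3 of 8 tested, Acta1 at 0) had sums of 564 and 201 CPM in libraries 2 and 4 of the 5-day group, against 3.14 to 9.09 CPM in the other 8 libraries. Adrenal cortex markers (2 of 8 tested) had sums of 1613 and 98.5 CPM in libraries 2 and 3 of that group, against 10.6 to 15.8 CPM in the remaining 8. Muscle markers were thus higher than elsewhere both in 5-day library 2, whose collagen sum of 2008 CPM lay inside the untreated range, and in library 4, whose collagen sum was the lowest of all.

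**Figure D5:**
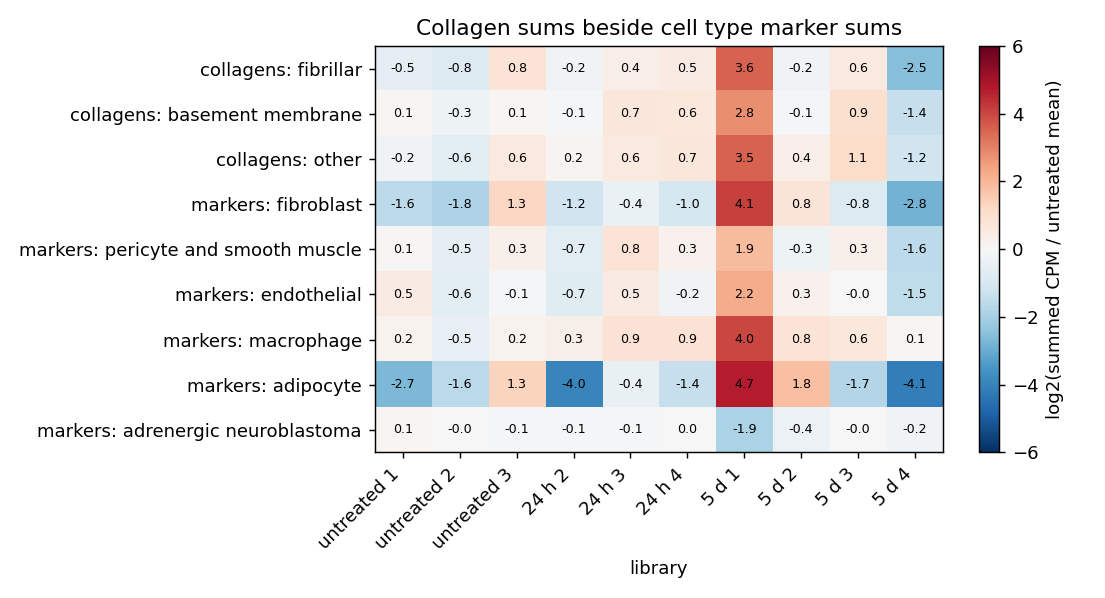
Log2 ratio of summed CPM to the untreated mean for the 3 collagen classes and 6 marker lists (rows) in each library (columns; red is higher, blue lower). All 3 collagen classes and the fibroblast, pericyte, endothelial and adipocyte markers are highest in 5-day library 1 and lowest in 5-day library 4, while adrenergic markers are lowest in library 1.

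Within the family, likeness over the 9 libraries without 5-day library 1 is given as Spearman's rho with Col1a1, as a description of values that share libraries and scaling. It was highest for Col5a1 (0.98), Col1a2 (0.95), Col5a2 and Col6a3 (0.92 each) and Col4a1 (0.90). It was 0.67 for Col3a1, 0.63 for Col6a2, 0.17 for Col6a6 and -0.07 for Col13a1. Col3a1 thus ranked the libraries less like Col1a1 than Col5a1 and Col5a2 did, while the type V chain Col5a3 (0.75) was closer to Col3a1.

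The ranking covered 12457 other genes with a mean of at least 5 CPM over all 10 libraries, 5-day library 1 included. Those most like Col1a1 over the same 9 libraries were Hid1 and Stk19 (rho 0.97 each) and Celf6, Endod1 and Loxl3 (0.95 each). Those most like Col4a1 were Trpv2 (0.98), C1qtnf6 and Igfbp7 (0.97 each), Chchd5 (0.95) and 1600020E01Rik (0.93). Loxl3, a lysyl oxidase-like enzyme, was at 29.2 CPM in 5-day library 1 and 1.42 to 4.86 CPM elsewhere. It thus entered the ranking only through the library left out of the correlation. Hid1 had the opposite direction in the library left out, at 28.1 CPM against 56.0 to 83.2 CPM elsewhere.

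Of the tested members not yet described, Col8a1 and Col12a1 were chosen after their values were seen. Col8a1, a short-chain collagen of vessel walls, was at 27.8, 25.1 and 38.4 CPM in untreated libraries, 17.7, 47.9 and 58.2 CPM at 24 h, and 73.0, 19.3, 46.8 and 7.45 CPM at 5 days. Col12a1, a fibril-associated collagen, was at 6.11, 14.5 and 25.0 CPM, 14.1, 28.7 and 34.4 CPM, and 156, 10.1, 37.2 and 2.66 CPM. Both had overlapping groups and the extremes of the abundant members. Col6a5 lay between 0 (24 h library 4, limit 0.521 CPM) and 66.5 CPM (5-day library 1). Col9a1, Col9a3, Col13a1, Col20a1 and Col23a1 lay between 0.174 and 13.2 CPM.

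The 12 members below the threshold for testing were Col2a1, Col4a3, Col4a6, Col6a4, Col7a1, Col8a2, Col9a2, Col10a1, Col17a1, Col19a1, Col22a1 and Col25a1. None of them exceeded 19 counts in any library. Col10a1 had 0 counts in all 10 libraries, and its span lies wholly inside Nt5dc1. Of 1321 protein-coding genes whose span lies wholly inside other annotated genes, 1315 (99.5%) had 0 counts in all libraries, against 15.7% of the other 20597. Timp1, Timp3, Timp4, Ogn and Aspn of the lists above likewise lie inside other genes and had 0 counts. A 0 for such a gene says nothing about its expression in these tumours. Lipe and Acta1 of the marker lists also had 0 counts throughout. Their overlap with other genes was not looked up, so these 0 values are not read as absence either. Col4a2 and Col4a3 overlap other genes over 13.7% and 22.4% of their spans, introns included. Their values are uncertain to an unknown extent, since the sources used here do not say how reads in overlaps were counted or whether strand was used.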

How the data were processed

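Polyadenylated RNA of 10 tumour libraries was measured. The authors' deposited tables give whole-number counts for Ensembl genes, and 0 columns were left unmatched to a sample. Per the submitters' processing notes, the authors used build mm10 with TopHat2 2.1.1, HISAT2 and edgeR, with no role given. The sources used here name no counter, annotation or strand setting. Of 54446 identifiers, 54409 had a symbol in GENCODE M21, and the other 37 held at most 0.0041% of a library's counts.

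Counts were tested in R 4.3.3 with edgeR 4.0.16 (TMM, robust quasi-likelihood F test, 1 mean per group over all 3 groups). Genes with at least 10 counts in 3 libraries were kept, 15036 with all 10 libraries and 14802 without 5-day library 1, and p-values of all of them were adjusted together (Benjamini-Hochberg, threshold 0.05). Standard errors derive from the F statistic. Libraries of a group differed by more than counting noise (chi-square per gene at least 6.01), so none was treated as the same library deposited again; libraries made separately from 1 tumour would not be detected this way. Alternatives were DESeq2 1.42.0, its size factors, raw totals for sums, limma 3.58.1 voom with quality weights, other filters, a fit of the 2 groups compared, a block for the replicate number and each library left out. Plots used Python 3.11.15 and matplotlib 3.10.9.

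The gene family, the lists and the tests were chosen with earlier results of these data known. Genes named are the 14 collagens of highest mean CPM, called genes (there were none), the 2 most abundant genes of each list and the 5 most like Col1a1 or Col4a1. Where the text names others with values, it says that they were picked with their values in view, or gives them by range. Genes that overlap another gene on either strand are uncertain.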

Additional observations from a re-analysis of the deposited data

Results flagged for a closer look

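In the 5-day group (n = 4), 22 values were examined for a library far from the other 3, measured as its gap to the nearest divided by the range of the group. Of these, 12 exceeded Dixon's 95% critical value for 4 samples, and genes that share libraries are not independent. Library 1 was known beforehand to stand apart, and CPM were used without logarithms. The values below therefore describe the 5-day group and are no test of library 1. Library 1 stood above the others for Col3a1 (0.925), Col1a1 (0.88), Col1a2 (0.851), Col6a3 (0.843), Col6a1 (0.871), Col6a2 (0.88), Col5a3 (0.865) and Col14a1 (0.879). It also did for the summed CPM of all collagens (0.865), of fibrillar collagens (0.883) and of other collagens (0.847). For Col28a1 it was library 4 that stood below the others (0.863).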

How the results depend on the processing

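Under all alternatives tried, 0 collagens were called, and the smallest adjusted p was 0.224, 0.120 and 0.272 for the 3 comparisons (24 h and 5 days with untreated, then 5 days with 24 h) with all libraries, and 0.116, 0.0941 and 0.166 without 5-day library 1. Leaving out each library in turn moved the 5-day median of fibrillar collagens against untreated (1.59) between -0.002 and 2.29 and that of basement membrane collagens (1.34) between 0.0916 and 1.70, each lowest without 5-day library 1. Against 24 h, the median of other collagens (0.78) moved between -0.0757 and 1.15, and that of basement membrane collagens without 5-day library 1 (-0.02) between -0.83 and 0.32. For single genes at 5 days against untreated, the ranges were -0.53 to 2.92 for Col3a1 and -0.22 to 2.46 for Col1a1 with all libraries. Without 5-day library 1 they were -0.99 to 0.50 for Col3a1, -1.15 to 0.29 for Col1a1, -0.56 to 0.58 for Col4a1, -0.87 to 1.13 for Col6a3 and -0.0386 to 1.29 for Col18a1. For these genes, 5-day library 1 set the low ends with all libraries, and untreated library 3 or 5-day libraries 3 and 4 set the other ends. Voom with quality weights gave 5-day medians of 0.0027 for fibrillar and 0.18 for basement membrane collagens against untreated and -0.16 for others against 24 h, and -0.40 for Col3a1 and -0.27 for Col1a1 against untreated. With the replicate number as a block, the median of other collagens at 5 days against 24 h was -0.10, and the block called 0 collagens. The cause of these differences was not tested. Same-numbered libraries correlated at -0.39 to 0.24 in their deviations from group means, and not every library correlated best with its own number. The 5-day means include library 1, which shifts the deviations of the other 5-day libraries, so these correlations can neither show nor exclude pairing. The numbers were not taken as pairs in the main fit. In the other alternatives these single genes kept their sign, and medians and sums moved by less than the spread between libraries, but among 76 further values of named genes the sign changed in 117 of 1320 alternatives. The depth limits what can be said of members near 3 counts.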
